A study of Homo sapiens with 6 samples.

Results

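The 48 genes described here encode parts of the mitochondrial respiratory chain, the ATP synthase, the mitochondrial ribosome and the protein import machinery. They were chosen by name from the 5187 genes that the deposited count files list, as symbols that start with MT-, NDUF, COX followed by a digit, UQCR, ATP5, MRPL, MRPS, TIMM or TOMM. Of 51 symbols with such a start, 3 were left out because they name a pseudogene (COX20P1) or a divergent noncoding transcript (NDUFA6-DT and NDUFV1-DT). The 48 genes comprise 15 that are encoded by the mitochondrial genome and 33 that are encoded in the nucleus.

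RNA was sequenced from Huh7, an established human hepatocellular carcinoma line. One group was 3 samples treated with GABA (gamma-aminobutyric acid, a neurotransmitter that other tissues also make and take up) for 24 h, and the other was 3 control samples at the same time. All 6 libraries came from total RNA of cells kept in DMEM with fetal bovine serum, and the labels call them biological replicates 1, 2 and 3 of each group without giving the GABA dose. Whether a replicate is a separate culture is not said further, so the p-values rest on the spread between these libraries, estimated over the listed genes only. Huh7 is 1 cell line, and none of the 17 hepatoma and hepatocyte markers looked for, ALB and AFP included, is among the listed genes, so the identity of the line was not checked here.

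Respiration couples electron transfer through complexes I to IV to proton pumping across the inner mitochondrial membrane, and complex V, the ATP synthase, uses the proton gradient to make ATP. Complexes I, III, IV and V are mosaics. A few core subunits are encoded by mitochondrial DNA, transcribed as long precursors from both strands and translated inside the organelle, and the remaining subunits, all mitoribosomal proteins and the whole import apparatus come from nuclear genes. Hepatocytes are rich in mitochondria, while hepatocellular carcinoma cells in culture often rely more on glycolysis.

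How the listed genes were selected is not stated, but nearly all of them differ in the comparison they are used for. This limits what any count or p-value can say. The spread and the adjustment of p were both taken over the listed genes, so adjusted p-values below describe genes within this list. Of the 4981 genes tested, 98.7% were called different between GABA and control cells (adjusted p under 0.05 in edgeR's quasi-likelihood test), 47.6% as higher and 51.2% as lower with GABA. The rank of a gene's row in the files and its p-value had a Spearman correlation of 0.931 across the tested genes, and the smallest absolute log2 fold change among them was 0.12. Totals per library ran from 7702666 to 8392945 counts, and they are sums over listed genes, not the sequencing depth. Levels below are CPM, TMM-scaled counts per 1000000 counts of the listed genes, so that a value depends on which genes were listed. A bulk library cannot tell fewer mitochondria per cell from less RNA of each kind per mitochondrion.

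Among the annotated genes that the name rule takes, 15 of 37 mitochondrially encoded genes (40.5%) and 33 of 207 nuclear encoded genes (15.9%) were listed, against 22.3% of all annotated protein-coding genes. The listed mitochondrial genes are 5 of 7 complex I subunits, cytochrome b, 2 of 3 complex IV subunits, both ATP synthase subunits, both rRNAs and 3 of 22 tRNAs. None of the 9 nuclear genes of complex III with a UQCR symbol and 1 of the 17 COX genes of complex IV were listed. All 48 genes passed the filter on low counts.

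The sequences of 4 short mitochondrial genes are shown because their changes stood apart from those of their neighbours. The 3 tRNAs, MT-TL1 for leucine at chrM:3230-3304 on the plus strand, MT-TN for asparagine at chrM:5657-5729 on the minus strand and MT-TR for arginine at chrM:10405-10469 on the plus strand, have their anticodons in capitals. MT-ATP8, at chrM:8366-8572 on the plus strand, has in capitals the 46 bases that it shares with the start of MT-ATP6. Coordinates and sequences are those of GENCODE release 29 on GRCh38.
MT-TL1: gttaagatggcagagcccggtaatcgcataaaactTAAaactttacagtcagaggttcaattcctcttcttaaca
MT-TN: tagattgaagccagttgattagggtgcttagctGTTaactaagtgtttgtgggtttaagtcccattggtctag
MT-TR: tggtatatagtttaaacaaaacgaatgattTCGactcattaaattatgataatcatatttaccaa
MT-ATP8: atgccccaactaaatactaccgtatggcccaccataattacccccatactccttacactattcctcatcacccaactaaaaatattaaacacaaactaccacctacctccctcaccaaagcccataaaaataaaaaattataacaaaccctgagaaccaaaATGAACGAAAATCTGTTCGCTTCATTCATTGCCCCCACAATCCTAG

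With GABA, mitochondrially encoded mRNAs were mostly lower and nuclear encoded genes were more often higher. Of the 15 mitochondrially encoded genes 8 fell, 4 rose and 3 did not pass, with a median log2 fold change of -0.19. Of the 33 nuclear encoded genes 20 rose and 13 fell, with a median of 0.23. Of all tested genes 47.6% were called higher and 51.2% lower, and the 8 falls of 15 are near that share. The median over all tested genes was -0.18, and the median absolute log2 fold change was 0.30 over the 48 genes and 0.40 over all tested genes. The ranges of the groups did not overlap in 38 of the 48 genes, 10 mitochondrially and 28 nuclear encoded, where 92.5% of all tested genes had no overlap. The share of the 48 genes that were called, 93.8%, is below the 98.7% of all tested genes, so the counts of called genes show nothing particular to this set.

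**Figure D1:**
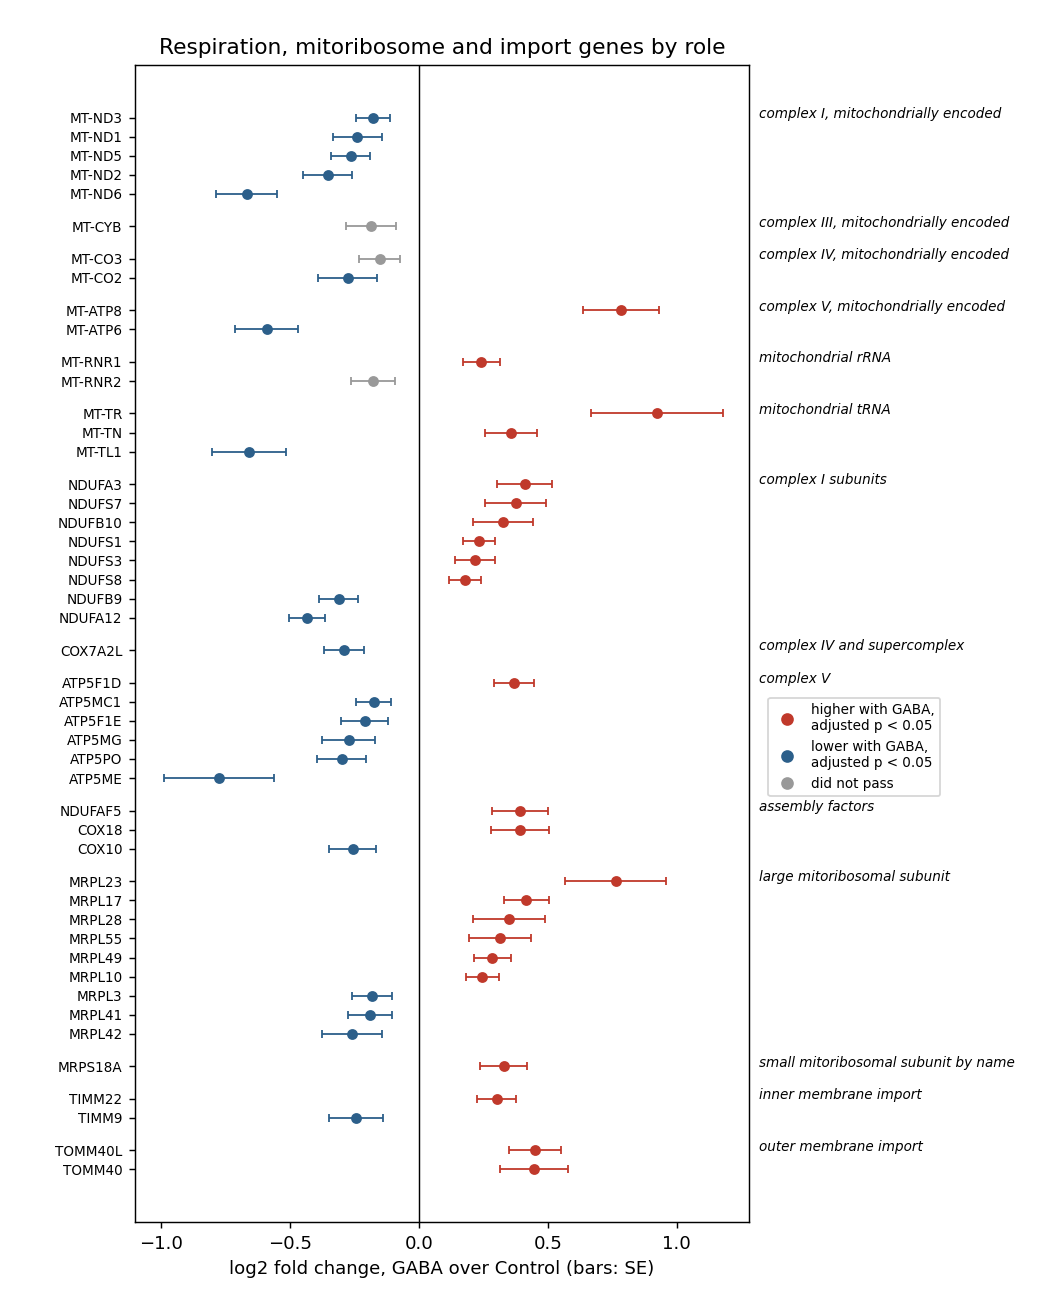
Log2 fold change of GABA over control cells (x axis, points with SE bars) for 47 of the 48 genes, grouped by role, with genes that passed an adjusted p of 0.05 in red (higher) or blue (lower) and the others in grey. All 5 complex I subunits of the mitochondrial genome lie below 0, while NDUFA12 and NDUFB9 are the only nuclear complex I subunits drawn that do.

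The 15 listed mitochondrially encoded genes held 6.66%, 7.04% and 6.74% of the listed counts in GABA replicates 1, 2 and 3. In control replicates 1, 2 and 3 they held 7.74%, 7.15% and 9.11%. Every GABA library lay below every control library, although GABA replicate 2 and control replicate 2 were close. MT-CO1, MT-ND4 and MT-ND4L are not listed, so this is not the share of all mitochondrial RNA. Whether the selection of the listed genes shaped the gap was not tested. The mean share was 6.81% ± 0.20 with GABA and 7.997% ± 1.01 in control cells (SD, n = 3 each), a difference of -1.18 percentage points, or -0.63 without control replicate 3. The mRNAs accounted for most of it, with 5.44% ± 0.15 in GABA and 6.52% ± 0.89 in control libraries, while the 2 rRNAs held 1.30% ± 0.097 and 1.42% ± 0.13. The 33 nuclear encoded genes together held 0.460% ± 0.0094 of the counts with GABA and 0.435% ± 0.010 in control cells.

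All 5 listed mitochondrial subunits of complex I, the NADH dehydrogenase, fell, where 51.2% of all tested genes were lower. With DESeq2 size factors and with DESeq2, 3 of the 5 were called, and MT-ND1 and MT-ND3 did not pass. MT-ND6, which encodes a membrane subunit and is the protein gene on the light strand, had 1084, 1143 and 1213 CPM in GABA libraries and 1566, 1610 and 2291 CPM in control libraries. The groups were well apart, and control replicate 3 was the highest library. The MT-ND6 log2 fold change of -0.67 ± 0.12 (SE, adjusted p = 6.2e-04) was the lowest among the mitochondrially encoded genes, and it was -0.47 without control replicate 3 (adjusted p = 1.2e-09). That library was picked after its values were known, so smaller adjusted p-values without it, here and below, are not stronger evidence. MT-ND2, another membrane subunit of complex I, had 5283, 5433 and 5389 CPM with GABA and 6659, 5849 and 8057 CPM in control cells (log2 fold change -0.35 ± 0.10, adjusted p = 0.0057). MT-ND5, one of the proton-pumping subunits, had 4784, 4887 and 5033 CPM with GABA and 5682, 5384 and 6585 CPM in control cells (-0.26 ± 0.08, adjusted p = 0.0075). The GABA libraries of both genes lay within a narrow band, and the control libraries were spread, with control replicate 3 on top. MT-ND1, of the membrane arm near the ubiquinone site, had 6975, 7238 and 7300 CPM with GABA and 7969, 7394 and 10018 CPM in control cells (-0.24 ± 0.10, adjusted p = 0.029). GABA replicate 3 and control replicate 2 of MT-ND1 nearly met, and the value without control replicate 3 was -0.10 (adjusted p = 0.044). MT-ND3 had 1853, 1938 and 1675 CPM with GABA and 2022, 2066 and 2092 CPM in control cells, close together in the control group (-0.18 ± 0.07, adjusted p = 0.021).

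MT-ND6 also differed in proportion to the heavy-strand mRNAs. Its counts equalled 2.12%, 2.09% and 2.29% of the summed counts of the 9 listed heavy-strand mRNAs in GABA replicates 1, 2 and 3, and 2.54%, 2.89% and 3.09% in control replicates 1, 2 and 3. The groups did not overlap in this ratio, which is taken within each library and therefore does not depend on the scaling. No test was made on it, because the genes were compared after their values were known. Counting is not stated to have used the strand, so reads from the opposite strand of MT-ND6 may be included. The other listed gene on that strand, the tRNA gene MT-TN, went the other way (log2 fold change 0.36).

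Of the 3 mitochondrial genes of complexes III and IV, 1 fell and 2 did not pass. MT-CYB, cytochrome b of complex III, had 7120, 7728 and 7810 CPM with GABA and 8341, 7381 and 10052 CPM in control cells, with overlapping groups and a log2 fold change of -0.19 ± 0.10 that did not pass (adjusted p = 0.076). MT-CO3, a core subunit of complex IV, the cytochrome c oxidase, had 11167, 12374 and 10654 CPM with GABA and 13285, 11438 and 13280 CPM in control cells, and did not pass either (-0.15 ± 0.08, adjusted p = 0.078). MT-CO2, the complex IV subunit that accepts electrons from cytochrome c, had 8871, 9655 and 9390 CPM with GABA and 10373, 9441 and 13996 CPM in control cells. Here the groups overlapped, and control replicate 3 was far above the other libraries. MT-CO2 passed the test (-0.28 ± 0.12, adjusted p = 0.036) but not without control replicate 3, where the value was -0.09 (adjusted p = 0.077).

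The 2 ATP synthase genes of the mitochondrial genome, which overlap and are carried by 1 transcript, moved in opposite directions. MT-ATP6, the proton channel subunit, had 5072, 5297 and 5737 CPM with GABA and 7413, 6707 and 10123 CPM in control cells (log2 fold change -0.59 ± 0.12, adjusted p = 0.0014), and -0.40 without control replicate 3 (adjusted p = 1.9e-07). MT-ATP8, a small membrane subunit, had 31.1, 37.1 and 42.1 CPM with GABA and 18.3, 25.3 and 20.6 CPM in control cells (0.78 ± 0.15, adjusted p = 8.9e-04). The groups of both genes did not overlap. MT-ATP8 counts were 0.61%, 0.70% and 0.73% of MT-ATP6 counts in GABA replicates 1, 2 and 3 and 0.25%, 0.38% and 0.20% in control replicates 1, 2 and 3. Per kilobase of gene, MT-ATP8 stood at 178 CPM with GABA and 103 CPM in control cells, far below MT-ATP6 at 7884 and 11866 CPM per kilobase. The 46 shared bases printed above make up 22.2% of MT-ATP8, and how reads in them were assigned is not given in the sources used here, so the MT-ATP8 values are uncertain.

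The rRNAs of the mitochondrial ribosome did not move together. MT-RNR1, the rRNA of the small subunit, had 1495, 1531 and 1271 CPM with GABA and 1197, 1217 and 1218 CPM in control cells (log2 fold change 0.24 ± 0.07, adjusted p = 0.0086). The control libraries were nearly equal, and all GABA libraries lay above them. MT-RNR2, the rRNA of the large subunit, had 11562, 12409 and 10618 CPM with GABA and 12268, 12093 and 14746 CPM in control cells, and did not pass (-0.18 ± 0.09, adjusted p = 0.063). MT-RNR1 counts were 12.9%, 12.3% and 12.0% of MT-RNR2 counts in GABA replicates 1, 2 and 3, against 9.76%, 10.1% and 8.26% in control replicates 1, 2 and 3, so this ratio did not overlap between the groups. Per kilobase of gene, MT-RNR1 stood at 1501 CPM with GABA and 1269 CPM in control cells, far below MT-RNR2 at 7396 and 8362 CPM. Whether the library preparation kept the 2 rRNAs alike was not tested, so these values are not read as rRNA amounts in the cell.

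The tRNAs went both ways, with MT-TL1 and MT-TR at low counts. MT-TL1, which lies between MT-RNR2 and MT-ND1, had 15.3, 19.0 and 15.8 CPM with GABA and 25.6, 23.4 and 30.0 CPM in control cells (log2 fold change -0.66 ± 0.14, adjusted p = 0.0019). MT-TN, of the light strand, had 701, 785 and 627 CPM with GABA and 540, 631 and 479 CPM in control cells. Its groups overlapped by a small margin (0.36 ± 0.10, adjusted p = 0.0070), and it did not pass without control replicate 3 (0.26, adjusted p = 0.058). MT-TR, which lies directly after MT-ND3, was seen with 56, 46 and 47 reads in GABA libraries and 34, 26 and 18 reads in control libraries. This gave 7.19, 5.94 and 5.55 CPM with GABA and 4.13, 3.37 and 2.29 CPM in control cells, without overlap (0.92 ± 0.26, adjusted p = 0.0066). Whether these reads come from mature tRNAs or from precursors that span them cannot be told apart here.

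**Figure D2:**
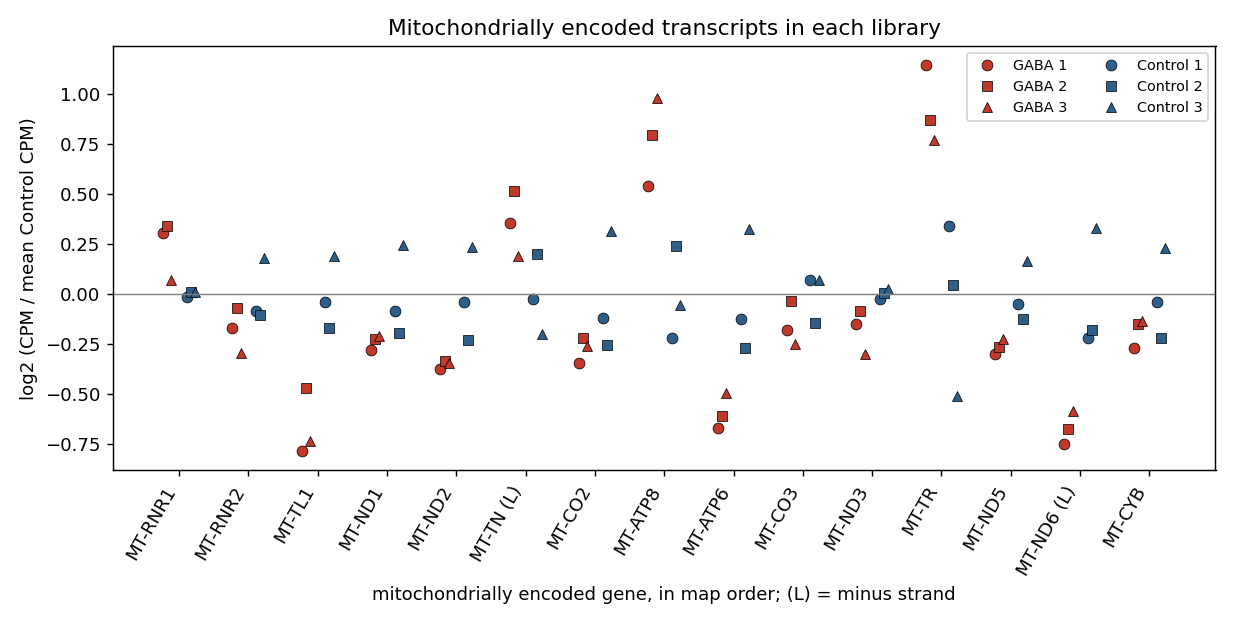
Level of each mitochondrially encoded gene in every library, as log2 of its CPM over the mean control CPM (y axis), in map order (x axis), with GABA in red and control in blue and the marker shape giving the replicate. Control replicate 3 (blue triangles) is the highest control library for MT-ND6, MT-ATP6 and MT-CO2, where it has 2291, 10123 and 13996 CPM, and the GABA libraries of MT-ATP8, MT-TR and MT-RNR1 lie above all control libraries.

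Copies of mitochondrial DNA in the nuclear genome can share reads with these genes. Among the listed copies, MTND2P28 and MTATP6P1 on chromosome 1 had log2 fold changes of -0.34 ± 0.11 (adjusted p = 0.013) and -0.64 ± 0.18 (adjusted p = 0.0075), close to those of MT-ND2 and MT-ATP6. They held 480, 486 and 451 CPM and 367, 404 and 373 CPM in GABA replicates 1, 2 and 3, and 559, 501 and 730 CPM and 531, 428 and 820 CPM in control replicates 1, 2 and 3. MTCO1P12, also on chromosome 1, is a copy of MT-CO1, which is not among the listed genes, and had -0.39 ± 0.16 (adjusted p = 0.034). MTCO1P11 had too few counts to be tested. How reads with more than 1 match were counted is not given in the sources used here.

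The nuclear subunits of complex I mostly rose, with 7 of 9 higher, 2 lower and a median log2 fold change of 0.22. Of all tested genes 47.6% were higher and 51.2% lower. NDUFA3, an accessory membrane subunit, had 48.7, 45.0 and 44.5 CPM with GABA and 33.6, 38.2 and 32.1 CPM in control cells (0.41 ± 0.11, adjusted p = 0.0046). NDUFS1, the large subunit of the electron-input module that carries iron-sulfur clusters, had 378, 374 and 354 CPM with GABA and 308, 309 and 323 CPM in control cells (0.23 ± 0.06, adjusted p = 0.0054). NDUFS7, which carries the last iron-sulfur cluster before ubiquinone, had 40.9, 44.1 and 43.2 CPM with GABA and 34.0, 37.0 and 27.7 CPM in control cells (0.38 ± 0.12, adjusted p = 0.012). The groups were apart in all 3, as in 92.5% of all tested genes, and control replicate 3 was the lowest library for NDUFA3 and NDUFS7. The core subunits NDUFS3 and NDUFS8 and the accessory subunit NDUFB10 rose by 0.22 ± 0.08, 0.18 ± 0.06 and 0.33 ± 0.12. Transcripts of other genes overlap 49.1% of the exon length of NDUFS7 and 22.4% of that of NDUFS3.

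Accessory subunits made up both exceptions. NDUFA12, which sits at the junction of the arms of complex I and is a paralogue of the assembly factor NDUFAF2, had 131, 132 and 123 CPM with GABA and 167, 183 and 172 CPM in control cells. The difference of -0.43 ± 0.07 (adjusted p = 3.7e-04) had the smallest p of the 48 genes, and the libraries of each group were close together. NDUFB9, a subunit of the distal membrane arm, had 170, 163 and 157 CPM with GABA and 201, 220 and 186 CPM in control cells (-0.31 ± 0.08, adjusted p = 0.0035). With the 5 mitochondrial genes counted in, the listed subunits of complex I comprised 7 that rose and 7 that fell.

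The ATP synthase genes of the nucleus were mostly lower, with 5 of 6 down and 1 up, where 51.2% of all tested genes were lower. With DESeq2 size factors and with DESeq2, 2 of the 5 falls were called, and ATP5F1E, ATP5MC1 and ATP5MG did not pass. ATP5ME, a small membrane subunit involved in dimers of the enzyme, had 14.9, 10.98 and 8.03 CPM with GABA and 20.8, 21.6 and 15.4 CPM in control cells. The groups met closely at GABA replicate 1 and control replicate 3, without overlap, and the log2 fold change of -0.77 ± 0.21 (adjusted p = 0.0063) was the lowest of the 48 genes. MYL5, a gene on the opposite strand, overlaps 61.6% of its exon length. ATP5PO, which belongs to the stalk that holds the catalytic head, had 64.6, 61.2 and 60.2 CPM with GABA and 71.6, 72 and 85.3 CPM in control cells (-0.30 ± 0.10, adjusted p = 0.012). ATP5MC1, 1 of the genes for the rotating ring, had 144, 151 and 153 CPM with GABA and 169, 173 and 165 CPM in control cells (-0.18 ± 0.07, adjusted p = 0.024). ATP5MG and ATP5F1E, of the membrane part and the central stalk, had -0.27 ± 0.10 and -0.21 ± 0.09 (adjusted p = 0.025 and 0.040). ATP5F1E, whose groups overlapped, did not pass without control replicate 3 (-0.16, adjusted p = 0.081). The exception was ATP5F1D, the delta subunit of the central stalk, which had 199, 200 and 211 CPM with GABA and 158, 171 and 143 CPM in control cells (0.37 ± 0.08, adjusted p = 0.0015).

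COX7A2L, a relative of a complex IV subunit that helps to join complexes III and IV into supercomplexes, had 218, 234 and 196 CPM with GABA and 250, 268 and 274 CPM in control cells (-0.29 ± 0.08, adjusted p = 0.0054), with no overlap. The assembly factors were few and went both ways. COX18, which helps to insert the MT-CO2 protein into the inner membrane, had 48.3, 56.6 and 45.3 CPM with GABA and 35.0, 38.2 and 41.2 CPM in control cells (0.39 ± 0.11, adjusted p = 0.0080). COX10, an enzyme that makes heme A for complex IV, had 71.6, 83.9 and 77.4 CPM with GABA and 85.9, 93.5 and 98.7 CPM in control cells (-0.26 ± 0.09, adjusted p = 0.019). NDUFAF5, a methyltransferase-like assembly factor that modifies NDUFS7, had 38.2, 39.9 and 39.2 CPM with GABA and 32.5, 27.3 and 29.4 CPM in control cells (0.39 ± 0.11, adjusted p = 0.0060). All 3 assembly factors had groups without overlap, as did 92.5% of all tested genes.

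Proteins of the mitoribosome rose more often than they fell, with 6 of 9 large-subunit genes up and 3 down, and MRPS18A up. Of all tested genes 47.6% were higher and 51.2% lower. With DESeq2 size factors and with DESeq2, none of the 3 falls was called. MRPS18A is named for the small subunit, although its protein is found in the large subunit. MRPL17 had 139, 149 and 146 CPM with GABA and 114, 117 and 94.1 CPM in control cells (0.42 ± 0.09, adjusted p = 0.0017). MRPL49 had 273, 255 and 246 CPM with GABA and 209, 224 and 200 CPM in control cells (0.29 ± 0.07, adjusted p = 0.0036). In both genes the groups stood apart, and control replicate 3 was the lowest library. MRPL23, a protein near the exit of the nascent chain, had 28.3, 42.9 and 50.3 CPM with GABA and 22.2, 29.4 and 20.1 CPM in control cells. Its GABA libraries were widely spread and GABA replicate 1 lay below control replicate 2, and the log2 fold change of 0.76 ± 0.20 (adjusted p = 0.0045) did not pass without control replicate 3 (adjusted p = 0.054). MRPS18A had 73.6, 77.3 and 71.4 CPM with GABA and 60.8, 54.1 and 61.8 CPM in control cells (0.33 ± 0.09, adjusted p = 0.0064).

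MRPL10, of the stalk that recruits translation factors, rose by 0.25 ± 0.06, and MRPL28 and MRPL55 rose by 0.35 ± 0.14 and 0.32 ± 0.12. MRPL28 had 141, 130 and 133 CPM with GABA and 115, 126 and 76.6 CPM in control cells. Control replicate 3 was far below the other libraries, and without it the log2 fold change was 0.16 (adjusted p = 0.025). The 3 falls were small. MRPL3, close to the peptidyl transferase centre, had 370, 379 and 343 CPM with GABA and 403, 381 and 454 CPM in control cells (-0.18 ± 0.08, adjusted p = 0.036), and MRPL42 and MRPL41 had -0.26 ± 0.12 (adjusted p = 0.046) and -0.19 ± 0.08 (adjusted p = 0.045) with overlapping groups. Without control replicate 3, MRPL42 had -0.09 (adjusted p = 0.20), MRPL41 had -0.14 (adjusted p = 0.054) and MRPL55 had 0.20 (adjusted p = 0.053), so that these 3 did not pass.

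Import genes were represented by 4 members. TOMM40, the channel of the outer membrane, had 295, 278 and 261 CPM with GABA and 222, 239 and 150 CPM in control cells (0.45 ± 0.13, adjusted p = 0.0088). Control replicate 3 was well below the other control libraries, and the log2 fold change without it was 0.27 (adjusted p = 1.7e-04). TOMM40L, a relative of that channel, had 59.2, 60.1 and 58.1 CPM with GABA and 48.0, 42.1 and 39.6 CPM in control cells (0.45 ± 0.10, adjusted p = 0.0022). TIMM22, the channel through which carrier proteins enter the inner membrane, had 162, 153 and 146 CPM with GABA and 118, 123 and 132 CPM in control cells (0.30 ± 0.08, adjusted p = 0.0038). TIMM9, a small chaperone that hands proteins to that channel, had 77.7, 82.0 and 86.2 CPM with GABA and 92.98, 85.6 and 113 CPM in control cells, with overlapping groups (-0.24 ± 0.10, adjusted p = 0.038), and did not pass without control replicate 3 (-0.13, adjusted p = 0.12).

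Annotated exons of other genes also overlap MRPS18A (47.0% of its exon length), TIMM9 (30.5%), ATP5PO (25.4%), ATP5F1E (23.2%), NDUFB9 (21.0%) and TOMM40L (20.2%), and without a stated strand setting reads in those stretches cannot be told apart. Per kilobase of annotated exon, which allows levels of different genes to be set side by side, the nuclear genes ran from 5.42 CPM per kilobase (NDUFAF5) to 134 (MRPL3) with GABA and from 4.12 (NDUFAF5) to 152 (MRPL3) in control cells. MT-CO3 and MT-CO2 were the highest mitochondrially encoded genes on this scale, at 14539 and 13605 CPM per kilobase with GABA and 16158 and 16477 in control cells, and MT-TR was the lowest, at 95.8 and 50.2. These annotated lengths join the exons of all transcripts, so genes with long, rarely used exons come out low.

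Control replicate 3 was set beside control replicates 1 and 2. The values are given without a test, because that library was picked after its values were known. Its log2 ratio to the mean of control replicates 1 and 2 had a median of 0.28 over the 15 mitochondrially encoded genes, with 12 above 0, and of -0.05 over the 33 nuclear encoded genes, with 20 below 0. The medians of the other libraries against the remaining 2 of their own group lay between -0.22 and 0.05 for mitochondrially encoded and between -0.04 and 0.04 for nuclear encoded genes. In control replicate 3, 9 of the 33 nuclear genes (27.3%) lay more than 0.3 from the mean of the other control libraries, close to the 27.5% of all tested genes, against 9.12% to 17.6% of all tested genes in the other 5 libraries. Of the 15 mitochondrially encoded genes, 7 lay beyond 0.3 in control replicate 3 and 6 in control replicate 2, where the median was -0.22.

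Nuclear genes that were high and low in that library differed in base composition. The highest ratios were those of MT-ND6 (0.53), MT-ATP6 (0.52), MT-CO2 (0.50) and MRPL42 (0.47), and the lowest were those of MT-TR (-0.71), MRPL28 (-0.65), TOMM40 (-0.62), ATP5ME (-0.46) and NDUFB10 (-0.45). Across the 33 nuclear genes, the ratio and the GC content of the longest annotated transcript had a Spearman correlation of -0.61 in control replicate 3, 0.65 in control replicate 2 and 0.28 in control replicate 1, and of -0.02 to 0.05 in the GABA libraries. Over all tested genes it was -0.62, 0.59 and 0.27 in the same control libraries. These are descriptions across genes of the same libraries, and the control values are linked since each library is set against the other 2. MRPL42, MRPL28, TOMM40 and NDUFB10 have GC contents of 38.4%, 63.3%, 58.3% and 58.8%. The mitochondrially encoded genes do not follow that order, since MT-ND6 (42.7%) and MT-ATP6 (44.2%) were high and MT-TR (23.1%) was low.

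**Figure D3:**
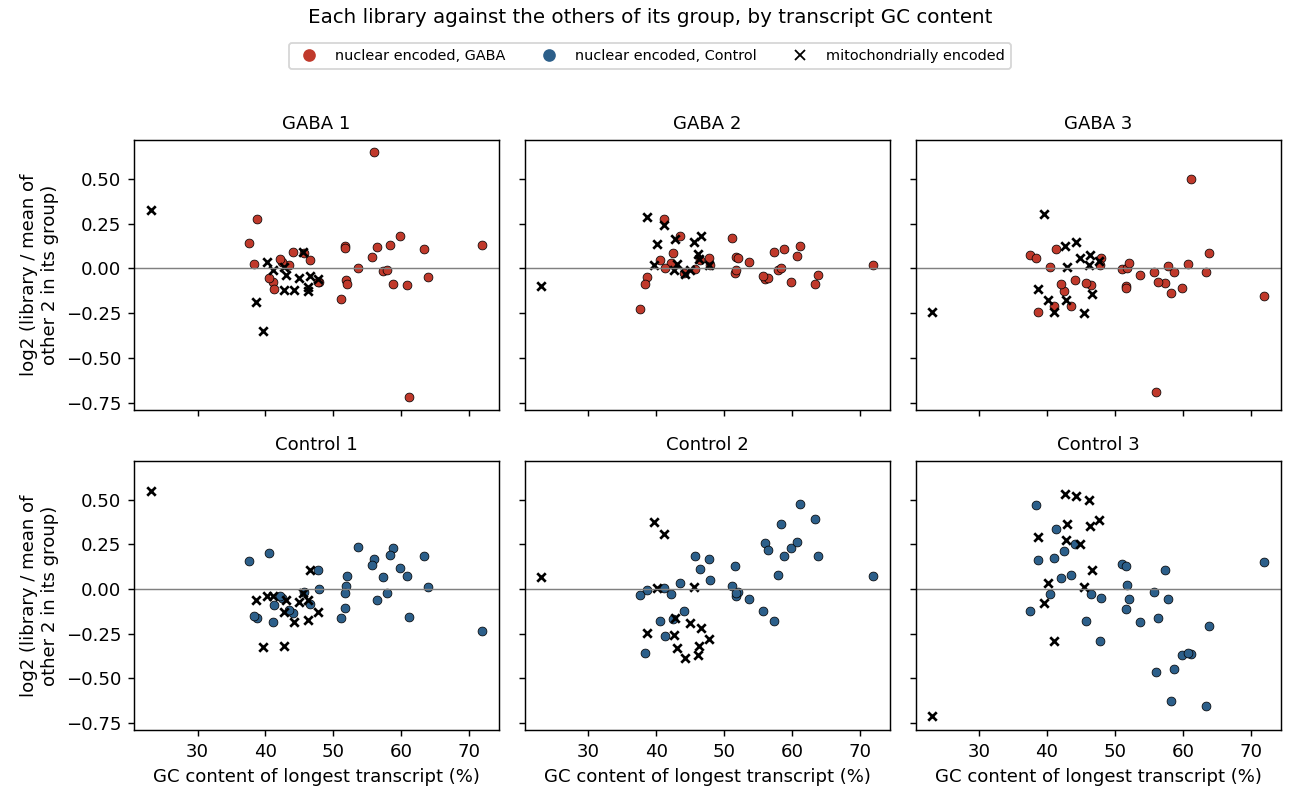
Log2 ratio of each library to the mean of the other 2 libraries of its group (y axis) against the GC content of the longest transcript (x axis, percent) for the 33 nuclear (circles) and 15 mitochondrially encoded genes (crosses). Nuclear genes slope downward in control replicate 3 (Spearman -0.61) and upward in control replicate 2 (0.65), and show no slope of that size in the GABA libraries.

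GC content also ran with the direction of the GABA difference. The 20 nuclear genes that rose had a median GC content of 56.1% and the 13 that fell had 44.1%, against 52.4% and 45.2% for all nuclear genes called higher and lower. The log2 fold change and GC content had a Spearman correlation of 0.44 over the 33 genes. Leaving out control replicate 1, 2 or 3 gave 0.46, 0.57 and 0.29. Over all tested nuclear genes the correlation was 0.22, and 0.25, 0.30 and 0.12 in the same 3 fits. A correction of each library for transcript GC content and length was added after the data were seen. With it the correlation over the 33 genes was 0.13, a drop that is built into a correction fitted on GC content. The correction was applied to nuclear genes only. By construction it left the log2 fold changes of the mitochondrially encoded genes as they were. The tests of those genes did shift in that fit, where MT-CO2 no longer passed (adjusted p = 0.11) and MT-RNR2 passed as lower (adjusted p = 0.047). With that correction, 14 of the 33 rose, 9 fell and 10 did not pass, and their median log2 fold change was 0.12 in place of 0.23. Complex I then had 4 subunits up and 2 down, with NDUFB10, NDUFS3 and NDUFS8 not passing, and ATP5MG, ATP5F1E, MRPL3, MRPL28, MRPL55, MRPS18A and TIMM9 were also no longer called. MRPL41, with the highest GC content at 71.9%, had -0.57 with the correction.

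Left without control replicate 3, the comparison still called 7 of the 8 mitochondrially encoded falls, all but MT-CO2, and 3 of the 4 rises, all but MT-TN. Among the nuclear genes 18 rose and 9 fell in that fit. The median log2 fold change was -0.10 for mitochondrially encoded and 0.19 for nuclear encoded genes. Each of the 48 genes kept the sign of its log2 fold change in that fit, and each of the 33 nuclear genes kept it with the GC correction. For the 15 mitochondrially encoded genes that correction could not change the sign, since it was not applied to them.

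**Figure D4:**
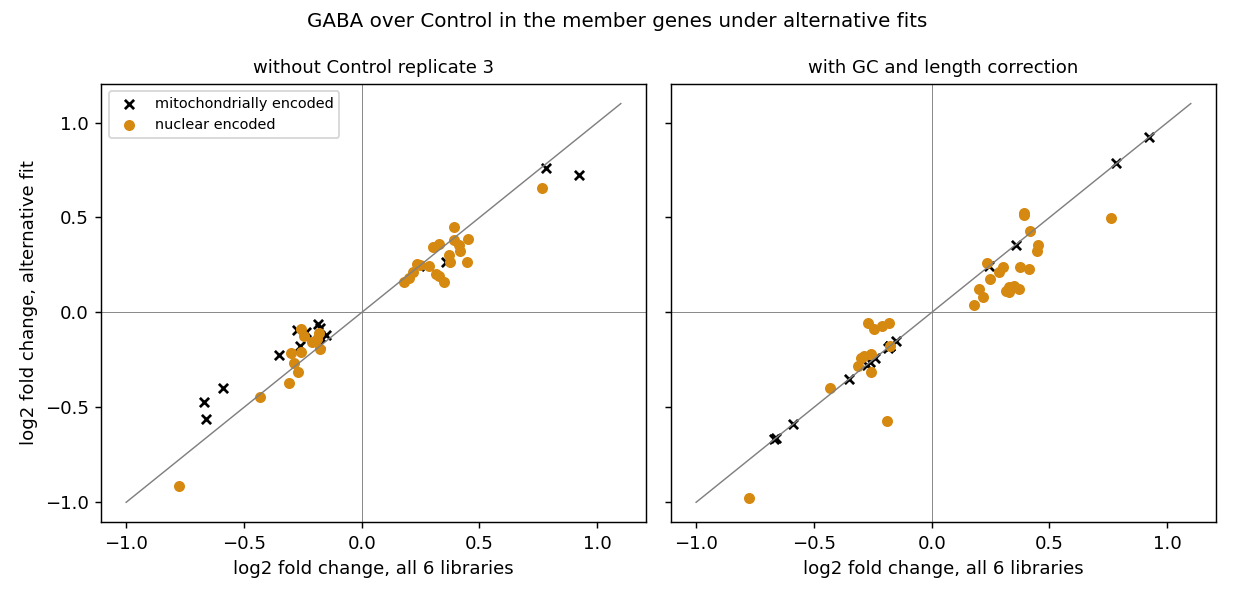
Log2 fold change of the 48 genes with all 6 libraries (x axis) against the same without control replicate 3 (left) and with a correction for transcript GC content and length (right), with the line of equal values in grey. Without control replicate 3 the median is -0.10 for mitochondrially encoded genes (crosses) and 0.19 for nuclear encoded genes (circles), and with the correction, which was applied to nuclear genes, the nuclear median is 0.12 against 0.23 with all libraries.

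Other mitochondrial genes, from 12 related lists, were read beside the 48. Of 268 genes in these lists 81 were listed and tested, of which 38 rose, 42 fell and 1 did not pass, near the 47.6% and 51.2% of all tested genes. In the list for mitochondrial DNA transcription and replication 4 of 19 genes were listed and tested, and these 4 were higher. POLRMT, the mitochondrial RNA polymerase, had 191 ± 14.3 CPM with GABA and 149 ± 11.2 CPM in control cells (SD, n = 3 each; log2 fold change 0.36 ± 0.08, adjusted p = 0.0023). DNA2, a nuclease and helicase of both genomes, had 0.65 ± 0.11, MTERF4, a factor of mitoribosome assembly, had 0.47 ± 0.10, and MGME1, an exonuclease of mitochondrial DNA, had 0.26 ± 0.09. All 4 were also called without control replicate 3 and with the GC correction, and 3 of the 4 were called without control replicate 1, control replicate 2, GABA replicate 2 or GABA replicate 3.

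Translation factors and assembly GTPases of the organelle rose in 9 of 12 and fell in 3, where 47.6% of all tested genes were higher and 51.2% lower. With the GC correction 6 rose, 3 fell and 3 did not pass, and the median log2 fold change was 0.12 in place of 0.26. TUFM, the elongation factor, had 486 ± 19.0 CPM with GABA and 396 ± 37.6 CPM in control cells (0.30 ± 0.08, adjusted p = 0.0043), and MTRFR, a rescue factor of stalled mitoribosomes, had 0.47 ± 0.09. RPUSD4, a pseudouridine synthase that acts on mitochondrial RNA, had -0.51 ± 0.11. Among 7 aminoacyl-tRNA synthetases and related genes 4 rose, with AARS2 at 0.70 ± 0.10 and VARS2 at 0.40 ± 0.09, and 3 fell, with NARS2 at -0.32 ± 0.11. Of the 10 RNA processing genes 5 rose and 5 fell, and with the GC correction 3 rose, 3 fell and 4 did not pass. ELAC2, which cuts the 3′ ends of tRNAs out of the precursors, had 326 ± 14.2 CPM with GABA and 254 ± 14.0 CPM in control cells (0.36 ± 0.07, adjusted p = 8.4e-04). PRORP, the nuclease subunit that cuts their 5′ ends, had 6.76 ± 1.00 CPM with GABA and 11.5 ± 0.88 CPM in control cells (-0.76 ± 0.18, adjusted p = 0.0033).

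Of 21 import genes outside the name rule 9 were listed, and all 9 fell, where 51.2% of all tested genes were lower. Among the import genes inside the rule, TOMM40, TOMM40L and TIMM22 rose and TIMM9 fell. IMMP2L, a protease of the inner membrane, had 17.7 ± 0.28 CPM with GABA and 31.4 ± 1.83 CPM in control cells (-0.83 ± 0.12, adjusted p = 1.4e-04). PMPCB, of the peptidase that removes import signals, had -0.29 ± 0.07, and the chaperones HSPD1 and HSPA9 had -0.19 ± 0.07 and -0.13 ± 0.06. With the GC correction 5 of the 9 fell and 4 did not pass. Assembly factors of respiratory complexes outside the name rule fell in 7 of 8, with UQCC1, a factor for complex III, at -0.41 ± 0.07 (120 ± 2.04 CPM with GABA and 159 ± 1.97 CPM in control cells, adjusted p = 3.7e-04). Of these 8, 4 fell without control replicate 3, and 2 with the GC correction. In complex II, SDHA, the flavoprotein subunit, rose by 0.30 ± 0.09, and the membrane anchors SDHC and SDHD had -0.18 ± 0.07 and -0.21 ± 0.08, with HCCS, which attaches heme to cytochrome c, at -0.21 ± 0.07. Only 1 of these 3 falls was called with the GC correction.

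The tricarboxylic acid cycle list had 6 of 9 genes up, where 47.6% of all tested genes were higher. Among the 6 were OGDH, of the oxoglutarate dehydrogenase, at 0.38 ± 0.07, SUCLG2, of the succinyl-CoA ligase, at 0.38 ± 0.06, and PDK2, a kinase that inhibits pyruvate dehydrogenase, at 0.78 ± 0.13. PDP1 and PDP2, the phosphatases that act against such kinases, had -0.31 ± 0.07 and -0.26 ± 0.08. Of the 7 listed carriers and uncoupling genes 4 rose and 3 fell, with UCP2, an uncoupling protein relative, at 1.17 ± 0.22 and SLC25A13, the aspartate-glutamate carrier of liver, at -0.50 ± 0.09. Of the 5 quality control genes 4 rose, among them PINK1, the mitophagy kinase, at 0.46 ± 0.10 and PHB1, a prohibitin, at 0.41 ± 0.07, and BNIP3L, a mitophagy receptor, had -0.42 ± 0.06. Both listed genes of fission and cristae, MFF and APOOL, fell (-0.28 ± 0.11 and -0.19 ± 0.08), though neither passed with the GC correction.

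Regulators of mitochondrial biogenesis fell in 4 of the 5 listed, out of 16 looked for, where 51.2% of all tested genes were lower. GABPA and GABPB1, the subunits of the ETS factor GABP that acts at many promoters of respiratory genes, had -0.38 ± 0.09 (106 ± 8.19 CPM with GABA and 139 ± 12.97 CPM in control cells, adjusted p = 0.0028) and -0.29 ± 0.13 (adjusted p = 0.046). PPRC1, a coactivator related to PGC-1, rose by 0.18 ± 0.07. With the GC correction, 2 of the 5 fell and 3 did not pass. No row of the files names TFAM, LRPPRC, PPARGC1A, NRF1 or CYCS, and they were not analysed here.

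Promoters of 28 of the 33 nuclear genes were found in the RefSeq table (GRCh38.p14), as 300 bases from 250 before to 50 after the gene's start. They were searched on both strands for CGCATGCG, the palindromic core of the site of NRF1, a factor known for its sites in respiratory gene promoters, and for CCGGAAG, a core of sites for ETS factors such as GABP. The first was in 6 of the 28 (21.4%), against 2.19% of all 27305 promoters and 3.73% of those of listed genes. COX18, MRPL17, NDUFAF5 and NDUFS7, which hold it, rose, and ATP5ME and TIMM9, which also hold it, fell. The second was in 8 of the 28 (28.6%), against 10.7% of all promoters and 16.8% of those of listed genes, in 4 of 16 promoters of genes that rose and 4 of 12 of genes that fell. A match shows only that the letters are there. The windows of COX18 (chr4:73069717-73069816, minus strand) and MRPL17 (chr11:6683367-6683466, minus strand) are shown with each copy of the first motif in capitals. They lie upstream of the RefSeq start, while GENCODE release 29 starts the 2 genes inside these windows, at 73069755 and 6683401. Both are examples, from complex IV assembly and from the mitoribosome, chosen after the values were seen. COX18 has 1 copy in its window and MRPL17 has 2.
COX18: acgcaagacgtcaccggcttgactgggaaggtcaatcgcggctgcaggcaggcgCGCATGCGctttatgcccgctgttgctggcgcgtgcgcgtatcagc
MRPL17: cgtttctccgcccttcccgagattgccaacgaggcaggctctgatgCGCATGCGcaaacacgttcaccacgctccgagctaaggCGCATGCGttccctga

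Markers of other cells were also looked for. None of the 6 immune and 4 endothelial markers was listed. Of 6 fibroblast markers COL3A1 and PDGFRB were listed, at 31.6 and 20.2 CPM with GABA and 20.0 and 40.3 CPM in control cells. Of 6 markers of other cell lines PAX2 and HOXB7 were listed, at 10.1 and 132 CPM with GABA and 5.50 and 111 CPM in control cells. Their part in the results was not tested.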

How the data were processed

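The authors deposited whole-number read counts per gene, with a separate file for each library. The submitters' processing notes name CASAVA 1.8, Bowtie 0.12.2 and the build hg38, in no stated order. The counting program, annotation release, strand setting and handling of reads with several matches are not given in the sources used here. Symbols came from a gene name table (4904 genes) or GENCODE release 29 (283). The members, lists and tests were chosen with earlier results of these data known. Genes were named by a rule: all mitochondrially encoded genes, up to 3 per role and direction by p, up to 2 per related list and direction by p, and fixed genes, with members outside it named by count or in short. MFF, APOOL, HSPA9, HSPD1 and others in the related lists beyond that rule were chosen after their values were seen.

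edgeR 4.0.16 in R 4.3.3 was run on all 5187 genes with filterByExpr (minimum count 10, minimum total 15), which left 4981, TMM scaling and a robust quasi-likelihood F test of GABA against control, with Benjamini-Hochberg adjustment over all tested genes. Log2 fold changes are GABA over control, with SE from the fit. The fit was tested on simulated counts with 200 changed genes and no outlying library. That setting is unlike these data, so the simulation does not vouch for the calls here. Alternatives were DESeq2 1.42.0, DESeq2 size factors, limma-voom (limma 3.58.1), library size only, TMM without mitochondrially encoded genes, no filter, a replicate block, leaving out each library in turn, and, added after the data were seen, a loess correction (span 0.5) of nuclear genes for transcript GC content and length. Values of a few single genes are not reported here. CPM are TMM-scaled and relative to the listed counts.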

Additional observations from a re-analysis of the deposited data

How the results depend on the processing

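Each of the 48 genes kept its sign in every alternative fit, and of 672 gene and setting values 577 kept their side of the threshold, 90 lost the call and 5 gained it. Since nearly all listed genes differ in this comparison and the basis of the listing is not stated, that is no independent sign of stability. The GC and length correction was not applied to the mitochondrially encoded genes, so their signs could not change in that fit. Genes called lower numbered 21, and 11 with DESeq2 size factors and 11 with DESeq2, and 12 to 23 with a library left out (12, 13 and 12 without GABA replicate 1, 2 and 3). Genes called higher numbered 24, and 19 to 23 with a library left out. The median log2 fold change of the nuclear encoded genes was 0.23, and 0.28 with DESeq2 size factors, 0.28 with DESeq2 and 0.12 with the added GC and length correction, and 0.19 to 0.25 with a library left out. That of the mitochondrially encoded genes was -0.19, and -0.14 with DESeq2 size factors and with DESeq2. With a library left out it was -0.29 to -0.10, the ends being the fits without control replicate 2 and without control replicate 3. The difference in the mitochondrially encoded share was -1.61 to -0.63 percentage points with a library left out. The cause of these shifts was not tested. The GC and length correction moved the median log2 fold change of all tested genes by 0.12, and the other settings by at most 0.056. The share of called genes that were higher was 48.2%, and 54.8% with DESeq2.

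With the replicate block, 24 genes were called higher and 19 lower, where MRPL3 (adjusted p = 0.056) and MRPL41 (adjusted p = 0.059) were lost. Same-numbered libraries did not deviate together (correlations -0.0032, -0.084 and -0.038), so the numbers are not taken as pairs, and the block left the difference in the mitochondrially encoded share at -1.18. Depth is unknown beyond the listed genes, and MT-TR rests on 18 to 56 reads a library.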
